A study of Mus musculus with 16 samples.

Results

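The genes described here encode enzymes that attach glutathione, glucuronic acid or a sulfate group to other molecules. They are the cytosolic glutathione transferases (Gst genes of the alpha, kappa, mu, omega, pi, theta and zeta classes), the microsomal glutathione transferases (Mgst), the UDP-glycosyltransferases of families 2 and 3 (Ugt2 and Ugt3) and the sulfotransferases (Sult). Members were taken by gene symbol from the table of counts, pseudogene symbols were left out, and a gene needed at least 100 counts summed over the 16 libraries. By symbol 60 genes qualified, and 44 of them passed the count minimum, out of 25408 genes tested and 57186 genes in the table. These 44 were 23 Gst genes, 3 Mgst genes, 10 Ugt genes and 8 Sult genes. The 16 genes below the minimum were 13 Sult genes, 2 Ugt2 genes and 1 Gstt gene.

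These enzymes carry out conjugation, the step that makes lipid-soluble drugs, hormones, bile acids and products of lipid peroxidation soluble enough for excretion. Glutathione transferases use the tripeptide glutathione, UDP-glucuronosyltransferases use UDP-glucuronic acid and sulfotransferases use the sulfate donor PAPS. The conjugates leave the cell through transporters, and the proximal tubule of the kidney, which secretes organic anions into urine, is a major site of conjugation outside the liver. Many of the genes sit in clusters of recent duplicates, and several Gst genes are known targets of the oxidant-responsive factor Nrf2.

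Kidney RNA was sequenced from male mice on a C57BL/6J background, taken at 16 weeks of age, that all carried Elmo1H/H, an allele pair that raises expression of Elmo1, a regulator of the small GTPase Rac1. Non-diabetic mice were Elmo1H/H Ins2+/+, and diabetic mice were Elmo1H/H Ins2Akita/+, in which misfolded proinsulin leads to beta-cell loss and high glucose. Each genotype was left untreated (ND_C and D_C) or given vitamin B12 in drinking water at 10 mg/kg per day from 8 weeks of age (ND_B12 and D_B12), with 4 libraries from 4 mice in each of the 4 groups. No group had wild-type Elmo1, so each comparison is within an Elmo1-overexpressing background. The RNA is from whole kidney, so a lower level can mean fewer cells of a type or less RNA per cell, and these cannot be told apart.

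Before the results, the assignment of libraries to groups needs a caution. Groups here follow the labels of the libraries. In a comparison over 175 genes that are not members, the group means tabulated in the supplement came closest, out of 1820 possible sets of 4 libraries, to sets in which 5 libraries had the labelled group and 11 had another. For 2 of these 11, D_C 1 and ND_B12 4, the diabetes state differed, for D_C 1 together with the treatment, and for the others only the treatment did. The set closest to the tabulated untreated diabetic means was the 4 libraries labelled D_B12. The set closest to the tabulated treated diabetic means was D_C 2, D_C 3, D_C 4 and ND_B12 4. The median absolute log2 difference was 0.000156 to 0.000261 for the closest sets and 0.0333 to 0.0495 for the next closest. For the labelled sets it was 0.0378 (ND_C), 0.0913 (ND_B12), 0.293 (D_C) and 0.286 (D_B12). The direction of every B12 effect in diabetic kidneys, the arm to which a diabetes effect is assigned and the sign of each interaction therefore rest on the labels, and leaving out D_C 1 and ND_B12 4 does not settle this. Counts of members and the values of the members with a call are given with all 16 libraries and again without those 2. The dates in the library names also run in the order of the groups, and only 2 dates hold more than 1 group, the first with ND_C 4 and ND_B12 1 and the second with ND_B12 2, ND_B12 3, ND_B12 4 and D_C 1, too few for a test. In neither arm do the diabetic and non-diabetic libraries share a date, nor do the treated and untreated diabetic ones, so for these comparisons date and group are separated only by assuming a linear trend over days. With the days between label dates as such a covariate, 0 members passed in the 3 diabetes comparisons, where 0.00787% of all genes passed in untreated kidneys, 0.114% in B12-treated kidneys and 0% on average, so this count says nothing particular of the members. Totals ran from 65271308 to 91771136 estimated counts per library.

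Kidney tubule identity was clear in all libraries, in which the 6 proximal tubule markers (Lrp2, Slc34a1, Slc5a2, Slc5a12, Slc22a6 and Slc7a13) summed to between 9940 and 12847 CPM (counts scaled to a common library size). Non-diabetic sums were 11653 to 12588 for ND_C and 12261 to 12847 for ND_B12, and diabetic sums 9940 to 12619 for D_C and 11050 to 11342 for D_B12, so that the D_B12 sums lay below all non-diabetic ones. The sum was mostly Lrp2 and Slc34a1, and the markers did not move together. Of the 6, only Slc34a1 separated, with 4568 to 4939 CPM in D_B12 and 4987 to 5569 in non-diabetic libraries. Slc22a6 leaned the other way, with 1095 to 1215 CPM in D_B12 and 991 to 1101 in non-diabetic libraries. The 4 B and plasma cell markers summed to 13.5 to 121 CPM in non-diabetic and 6.32 to 17.3 CPM in diabetic libraries. The 2 collecting duct markers summed to 83.2 to 221 CPM in non-diabetic and 132 to 413 CPM in diabetic libraries. Adipocyte markers spanned 0.291 to 144 CPM over all libraries, with libraries below 1 CPM in every group. The 5 adrenal markers summed to 3.77 to 7.64 CPM, most of it from Star at 3.57 to 7.37 CPM. Cyp11a1, Cyp21a1 and Mc2r stayed at or below 0.317 CPM, and Cyp11b1 was at 0 in all 16 libraries. The 3 skeletal muscle markers stayed at or below 0.419 CPM. The part of these differences in the transferase results was not tested.

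Neighbouring members are close copies of each other, and the first coding bases of the most alike genes show how little separates their reads. The lines below give the first 50 coding bases of each transcript on GRCm39, with capitals for bases that differ from the first gene of each set. Both Gstp windows are joined over an intron.
Gsta1, chr9:78139522-78139571, plus strand: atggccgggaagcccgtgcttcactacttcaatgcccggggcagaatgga
Gsta13, chr9:78165994-78166043, plus strand: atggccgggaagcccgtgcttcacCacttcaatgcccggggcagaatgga
Gsta5, chr9:78202088-78202137, plus strand: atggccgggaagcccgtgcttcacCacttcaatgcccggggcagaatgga
Gsta2, chr9:78249149-78249198, minus strand: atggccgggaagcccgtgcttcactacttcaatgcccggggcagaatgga
Gstp1, chr19:4087384-4087863, minus strand: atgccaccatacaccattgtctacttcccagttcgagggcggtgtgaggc
Gstp2, chr19:4091678-4092165, minus strand: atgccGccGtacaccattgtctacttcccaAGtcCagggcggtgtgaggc
Ugt2b38, chr5:87571981-87572030, minus strand: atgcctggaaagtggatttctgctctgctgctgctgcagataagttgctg
Ugt2b5, chr5:87288116-87288165, minus strand: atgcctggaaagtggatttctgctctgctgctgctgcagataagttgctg
Ugt2b37, chr5:87402580-87402629, minus strand: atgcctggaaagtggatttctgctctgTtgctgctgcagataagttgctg
In this window Gsta1 and Gsta2 were identical, Gsta13 and Gsta5 each differed from Gsta1 at 1 base, Gstp2 differed from Gstp1 at 5, and Ugt2b5 was identical to Ugt2b38. Over the whole coding sequence the identity was 99.7% between Gsta1 and Gsta13, 98.5% between Gsta5 and Gsta2, 98.1% between Gstp1 and Gstp2, 97% between Ugt2b38 and Ugt2b5 and 93.2% between Ugt3a1 and Ugt3a2. The share of exonic 50-base words that also occurred in another gene was 94.1% for Gsta13, 91.8% for Gsta1, 52.5% for Gstp2, 39.6% for Gsta5, 37.4% for Ugt2b38, 31% for Gstp1, 28.8% for Ugt2b5 and 28.2% for Gsta2. Counts of these genes taken one by one are therefore uncertain. By contrast, Gstk1, Gsta4, Gstm4, Mgst1, Mgst3, Sult1b1 and Sult1d1 shared no such word with another gene, and Gstt1 shared 0.0319% of its words.

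Most of the transferase RNA came from a handful of genes. Levels between genes were compared as normalized counts per kilobase of exon, and each gene's share is its percentage of the sum over the 44 members. Ugt2b38, a glucuronosyltransferase, held 19.4% on average over the 16 libraries (range 16.6% to 23.8%) and Ugt3a1, which transfers N-acetylglucosamine, held 18.0% (range 12.7% to 21.3%), ranges that overlap. With the longest transcript in place of all exons Ugt3a1 led with 19.9% and Ugt2b38 followed with 15.3%, so the order of the first 2 depends on the length used. Sult1d1, a sulfotransferase for phenols and catecholamines, held 12.3%, and Gstm1, a mu-class glutathione transferase, 8.69%. Ugt2b37, Gsta2, Ugt3a2 and Gstp1 followed with 6.37%, 5.50%, 4.18% and 3.18%. At the other end Mgst2, Ugt2b36, Ugt2b1, Sult2a8 and Ugt2b35 averaged at most 4.05 normalized counts per kilobase, and their fold changes carry large errors.

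**Figure D1:**
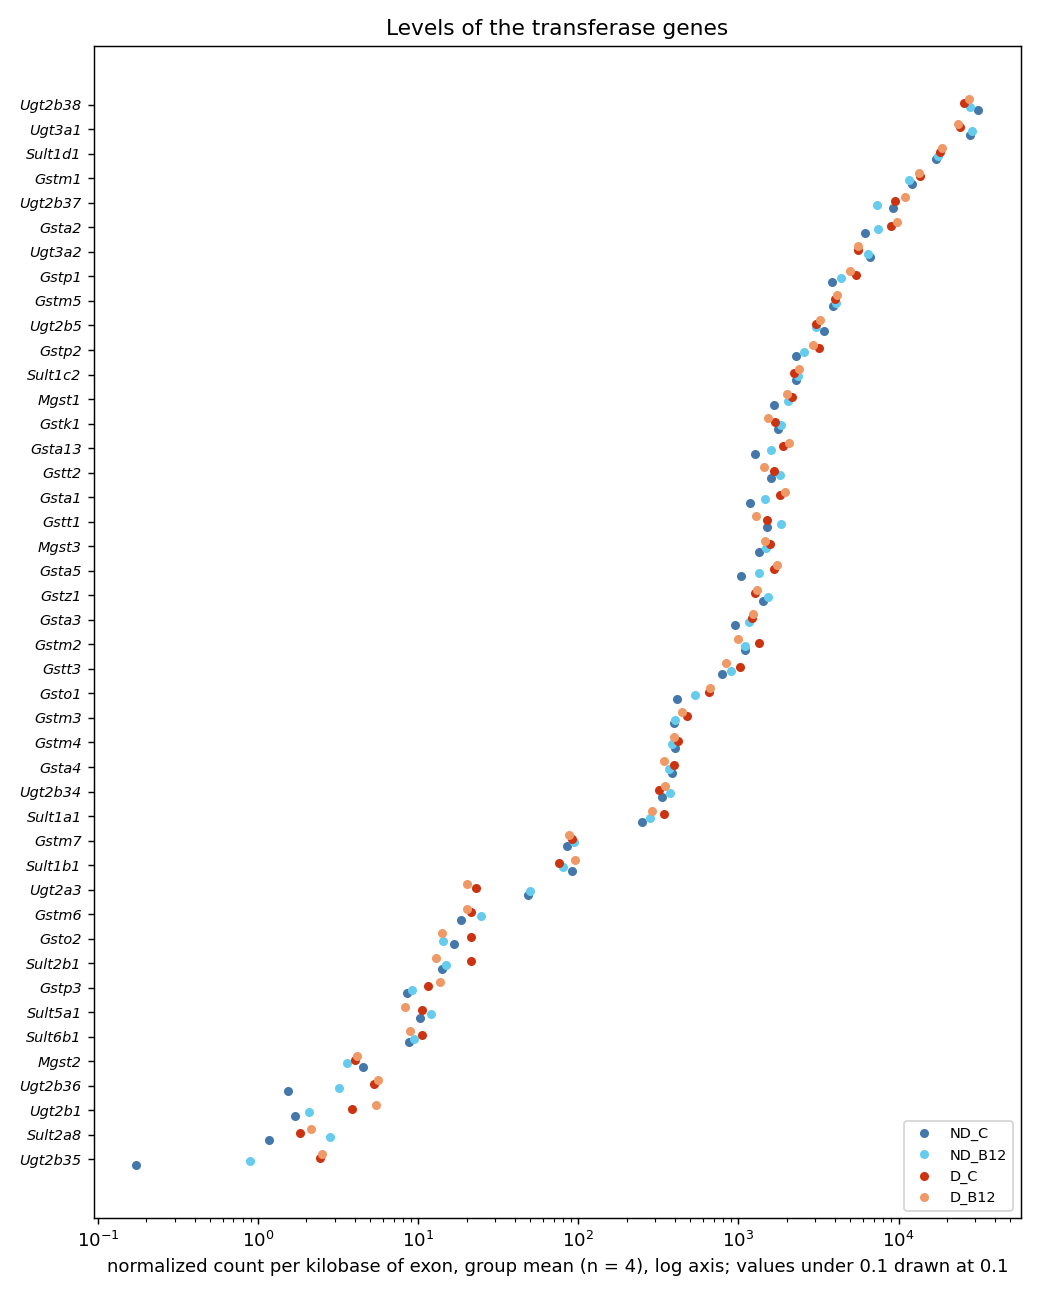
Group means (n = 4) of normalized counts per kilobase of exon for the 44 members on a log axis, ordered by the mean over all libraries, with 1 colour per labelled group. Ugt2b38 and Ugt3a1 lie at the top, Ugt2b35 at the bottom, and the group means of most genes lie close together compared with the distances between genes.

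The first question was which of these genes differed between diabetic and non-diabetic kidneys. Averaged over both treatments, 3 of 44 members (6.82%) passed an adjusted p of 0.05 in edgeR's quasi-likelihood test, against 3.02% of all genes, and all 3 were lower in diabetic kidneys, where 2.16% of all genes were called lower: Ugt3a1, Ugt3a2 and Ugt2a3. At an unadjusted p of 0.05, 22 of 44 (50%) passed, 15 higher and 7 lower, against 19.4% of all genes, 8.84% higher and 10.5% lower. Without D_C 1 and ND_B12 4, 20 of 44 (45.5%) passed after adjustment, 14 higher and 6 lower, against 9.82% of all genes. That fit leaves out libraries picked from these same data, and keeps as labelled the other libraries that matched another group. Higher in that fit were Gsta1, Gsta13, Gsta2, Gsta3, Gsta5, Gstm1, Gstm3, Gsto1, Gstp1, Gstp2, Gstt3, Sult1a1 and Ugt2b37. The 14 also count Ugt2b35, but it reached the count minimum mostly through its diabetic libraries, so its call is not read as a result. Lower were Gstk1, Gstt1, Gstz1, Ugt2a3, Ugt3a1 and Ugt3a2. The median log2 difference over the 44 members was 0.095, beside 0.0072 over all genes tested, and 0.058 without ND_C 2 and 0.16 without ND_B12 4. Class medians were 0.47 for Gsta, 0.35 for Gstp, 0.33 for Gsto, 0.10 for Mgst and 0.060 for Gstm. They were -0.13 for Gstt, -0.18 for Gstk and -0.19 for Gstz. Family medians were 0.13 for Ugt2, -0.24 for Ugt3, 0.035 for Sult1, 0.17 for Sult2 and -0.084 for the other Sult genes. Of the 8 Ugt2 genes 4 were higher and 4 lower. The higher ones were Ugt2b37 and the rare Ugt2b35, Ugt2b36 and Ugt2b1, with 109, 204 and 163 counts in all, so the sign of the Ugt2 median is not read as a result. The medians of Sult2 and of the other Sult genes rest on 2 rare genes each. The members share sequence and reads within a class, so such counts do not stand for independent genes.

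**Figure D2:**
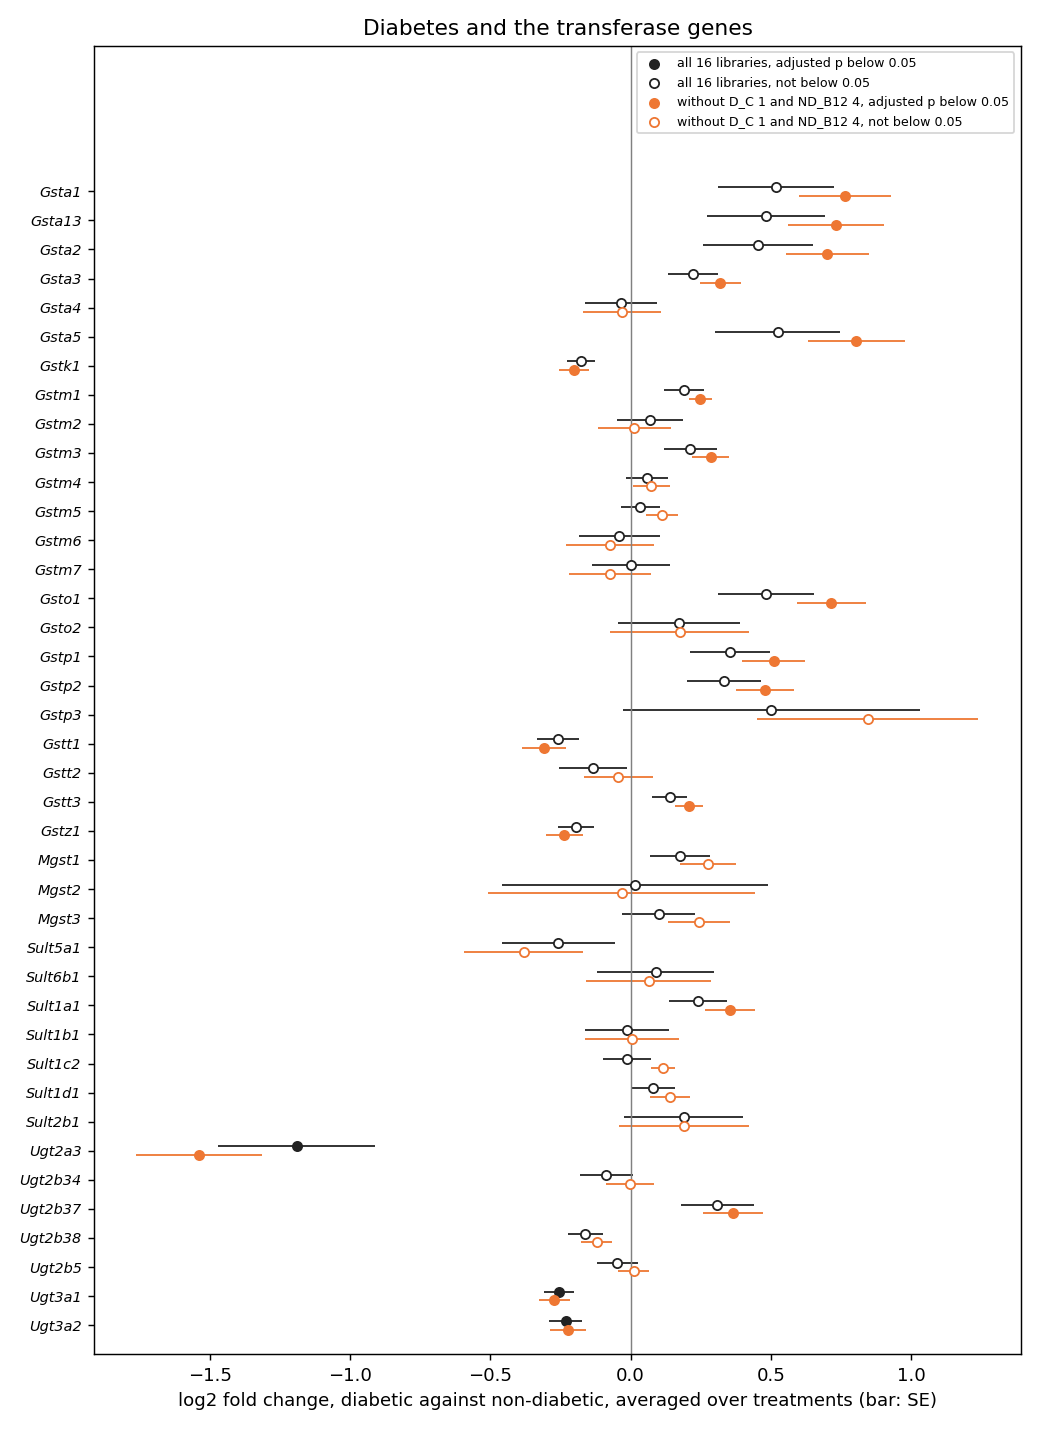
Log2 fold change of diabetic against non-diabetic kidneys, averaged over treatments, for 40 members, with bars for the SE. Black points use all 16 libraries, orange points leave out D_C 1 and ND_B12 4, and filled points passed an adjusted p of 0.05. Gsta1, Gsta2, Gsta5, Gsta13, Gstp1, Gstp2 and Gsto1 lie further to the right in orange, and Ugt2a3 lies farthest to the left in both. Ugt2b35, Ugt2b36, Ugt2b1 and Sult2a8, which had few counts, are left out.

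Each treatment arm alone gave fewer calls. In untreated kidneys (D_C against ND_C) only Gstt3 passed, 1 of 44 (2.27%) against 1.66% of all genes, 0.937% higher, and in B12-treated kidneys (D_B12 against ND_B12) only Gstt1, 1 of 44 against 0.823% of all genes, 0.563% lower. Without D_C 1 and ND_B12 4 these counts were 12 of 44 (27.3%) against 8.21%, and 4 of 44 (9.09%) against 2.69%. The 12 count Ugt2b35, whose call is not read as a result. The median over the members was 0.22 in untreated and 0.018 in B12-treated kidneys, beside -0.0034 and 0.0027 over all genes. With 1 library left out it moved to between 0.14 (without D_C 4) and 0.25 in untreated kidneys and to between -0.037 (without ND_B12 1) and 0.11 (without ND_B12 4) in B12-treated kidneys, so the sign of the latter is not fixed.

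Family 3 of the UDP-glycosyltransferases was lower in diabetic kidneys. Ugt3a1, the most abundant of the pair, lies at chr15:9335636-9371564 on the plus strand of GRCm39 and uses UDP-N-acetylglucosamine, whereas Ugt3a2, its neighbour at chr15:9276974-9315118, uses other UDP sugars. Normalized counts of Ugt3a1 were 98370, 101884, 100781 and 103940 for ND_C, 109716, 103247, 106780 and 101751 for ND_B12, 91000, 72487, 92271 and 96046 for D_C and then 82599, 90099, 81560 and 86844 for D_B12. Every diabetic library was below every non-diabetic one, D_C 1 and ND_B12 4 included, and D_C 2 was the lowest. The log2 difference was -0.26 (SE 0.053, edgeR adjusted p = 0.0216), -16.2% on the linear scale, and without the 2 libraries -0.27 (SE 0.056, adjusted p = 0.00875). Within the arms it was -0.20 (SE 0.075, adjusted p = 0.159) in untreated and -0.31 (SE 0.075, adjusted p = 0.0612) in B12-treated kidneys, so neither arm passed on its own. Leaving out 1 library at a time ended the call in 4 of 16 cases (ND_B12 2, ND_B12 3, D_B12 1, D_B12 3), with adjusted p between 0.0122 and 0.0564, and with the label date as a covariate the difference was -0.37 (adjusted p = 0.257).

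Ugt3a2 counts were 16464, 17029, 17388 and 19991 for ND_C, 17110, 16457, 17363 and 17836 for ND_B12, 15086, 12273, 16029 and 16266 for D_C and then 14390, 15928, 14592 and 14522 for D_B12. Here too the 8 diabetic libraries lay below the 8 non-diabetic ones without overlap, which held for 0.331% of all genes in this direction. The averaged log2 difference was -0.23 (SE 0.058, edgeR adjusted p = 0.0437) and -0.22 (SE 0.065, adjusted p = 0.0431) without the 2 libraries. The call was lost without the 4 libraries in doubt (D_C 1, ND_B12 4, ND_C 3 and ND_B12 1, adjusted p = 0.107), with the replicate block (adjusted p = 0.0559) and with a minimum of 1 count (adjusted p = 0.0718). When single libraries were left out the call was lost in 14 of 16 cases (ND_C 1, ND_C 2, ND_C 3, ND_C 4, ND_B12 1, ND_B12 2, ND_B12 3, ND_B12 4, D_C 2, D_C 3, D_B12 1, D_B12 2, D_B12 3, D_B12 4), with adjusted p between 0.0354 and 0.0897, and with the label date as a covariate the difference was -0.39 (adjusted p = 0.263). The summed normalized count of both genes was 118962 ± 3758 (SD, n = 4) for ND_C, 122565 ± 3545 for ND_B12, 102864 ± 12342 for D_C and then 100133 ± 4546 for D_B12. Ugt3a1 shares 5.15% of its 50-base words with Ugt3a2 and Ugt3a2 7.14% with Ugt3a1, and Ugt3a1 overlaps an opposite-strand gene, Gm56738.

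Family 2 did not move as a block. Ugt2a3, a glucuronosyltransferase of bile acids and steroids, is a low-abundance member with normalized counts of 87.5, 168, 139 and 63.3 for ND_C, 159, 122, 132 and 57.1 for ND_B12, 98.3, 26.3, 35.5 and 55.0 for D_C and then 58.2, 47.2, 44.1 and 41.3 for D_B12. All D_B12 libraries and 3 of 4 D_C libraries were at or below 58.2, while D_C 1 reached 98.3 and both ND_C 4 and ND_B12 4 were at or below 63.3, so the diabetic and non-diabetic ranges overlapped. The averaged difference was -1.19 (SE 0.28, edgeR adjusted p = 0.0337), -56.2%, and -1.54 (SE 0.22, adjusted p = 0.00103) without D_C 1 and ND_B12 4. It was the largest called decrease among the members in both fits. With a minimum of 1 count the call was lost (adjusted p = 0.0517). Leaving out 1 library at a time ended the call in 12 of 16 cases (ND_C 2, ND_C 3, ND_B12 1, ND_B12 2, ND_B12 3, D_C 2, D_C 3, D_C 4, D_B12 1, D_B12 2, D_B12 3, D_B12 4), with adjusted p between 0.00620 and 0.0737, and with the label date as a covariate the difference was -0.35 (adjusted p = 0.870).

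Ugt2b38, the most abundant glucuronosyltransferase, lies in the same chromosome 5 cluster and had normalized counts of 54658, 64379, 65926 and 53608 for ND_C, 56083, 51535, 51168 and 53456 for ND_B12, 40986, 55353, 47513 and 51401 for D_C and then 50483, 51389, 52068 and 53893 for D_B12. D_C 1 was the lowest of the 16, and ND_C 2 and ND_C 3 were the highest. The difference in untreated kidneys was -0.29 (SE 0.087, edgeR adjusted p = 0.0915) and in B12-treated kidneys -0.033 (SE 0.087, adjusted p = 0.891), with a 95% interval of -0.22 to 0.16 in the latter. The untreated value was -0.21 (SE 0.079, adjusted p = 0.109) without D_C 1 and ND_B12 4. Its near copy Ugt2b5 differed by -0.17 (SE 0.10, adjusted p = 0.397) in untreated kidneys, and Ugt2b37 by 0.31 (SE 0.13, adjusted p = 0.208) averaged over treatments and by 0.36 (SE 0.11, adjusted p = 0.0458) without the 2 libraries.

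Ugt2b35 had few reads in any group, with normalized counts of 0, 2.98, 0 and 0 for ND_C, 0, 6.95, 2.49 and 5.80 for ND_B12, 0, 14.1, 13.3 and 14.6 for D_C and then 7.02, 6.35, 22.1 and 7.29 for D_B12. It was at 0 in 3 ND_C libraries, 1 ND_B12 library and D_C 1, and between 6.35 and 22.1 in the other 7 diabetic libraries. It reached the minimum with 109 counts in all, most of them from diabetic libraries, so no fold or test value is given for it. Its calls without D_C 1 and ND_B12 4, in untreated kidneys and on average, are not read as results. ND_B12 4, at 5.80, was within the range of the other treated non-diabetic libraries. Ugt2b36 and Ugt2b1, also rare, had averaged adjusted p-values of 0.244 and 0.423, and Ugt2b34 differed by -0.087 (SE 0.094, adjusted p = 0.667).

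**Figure D3:**
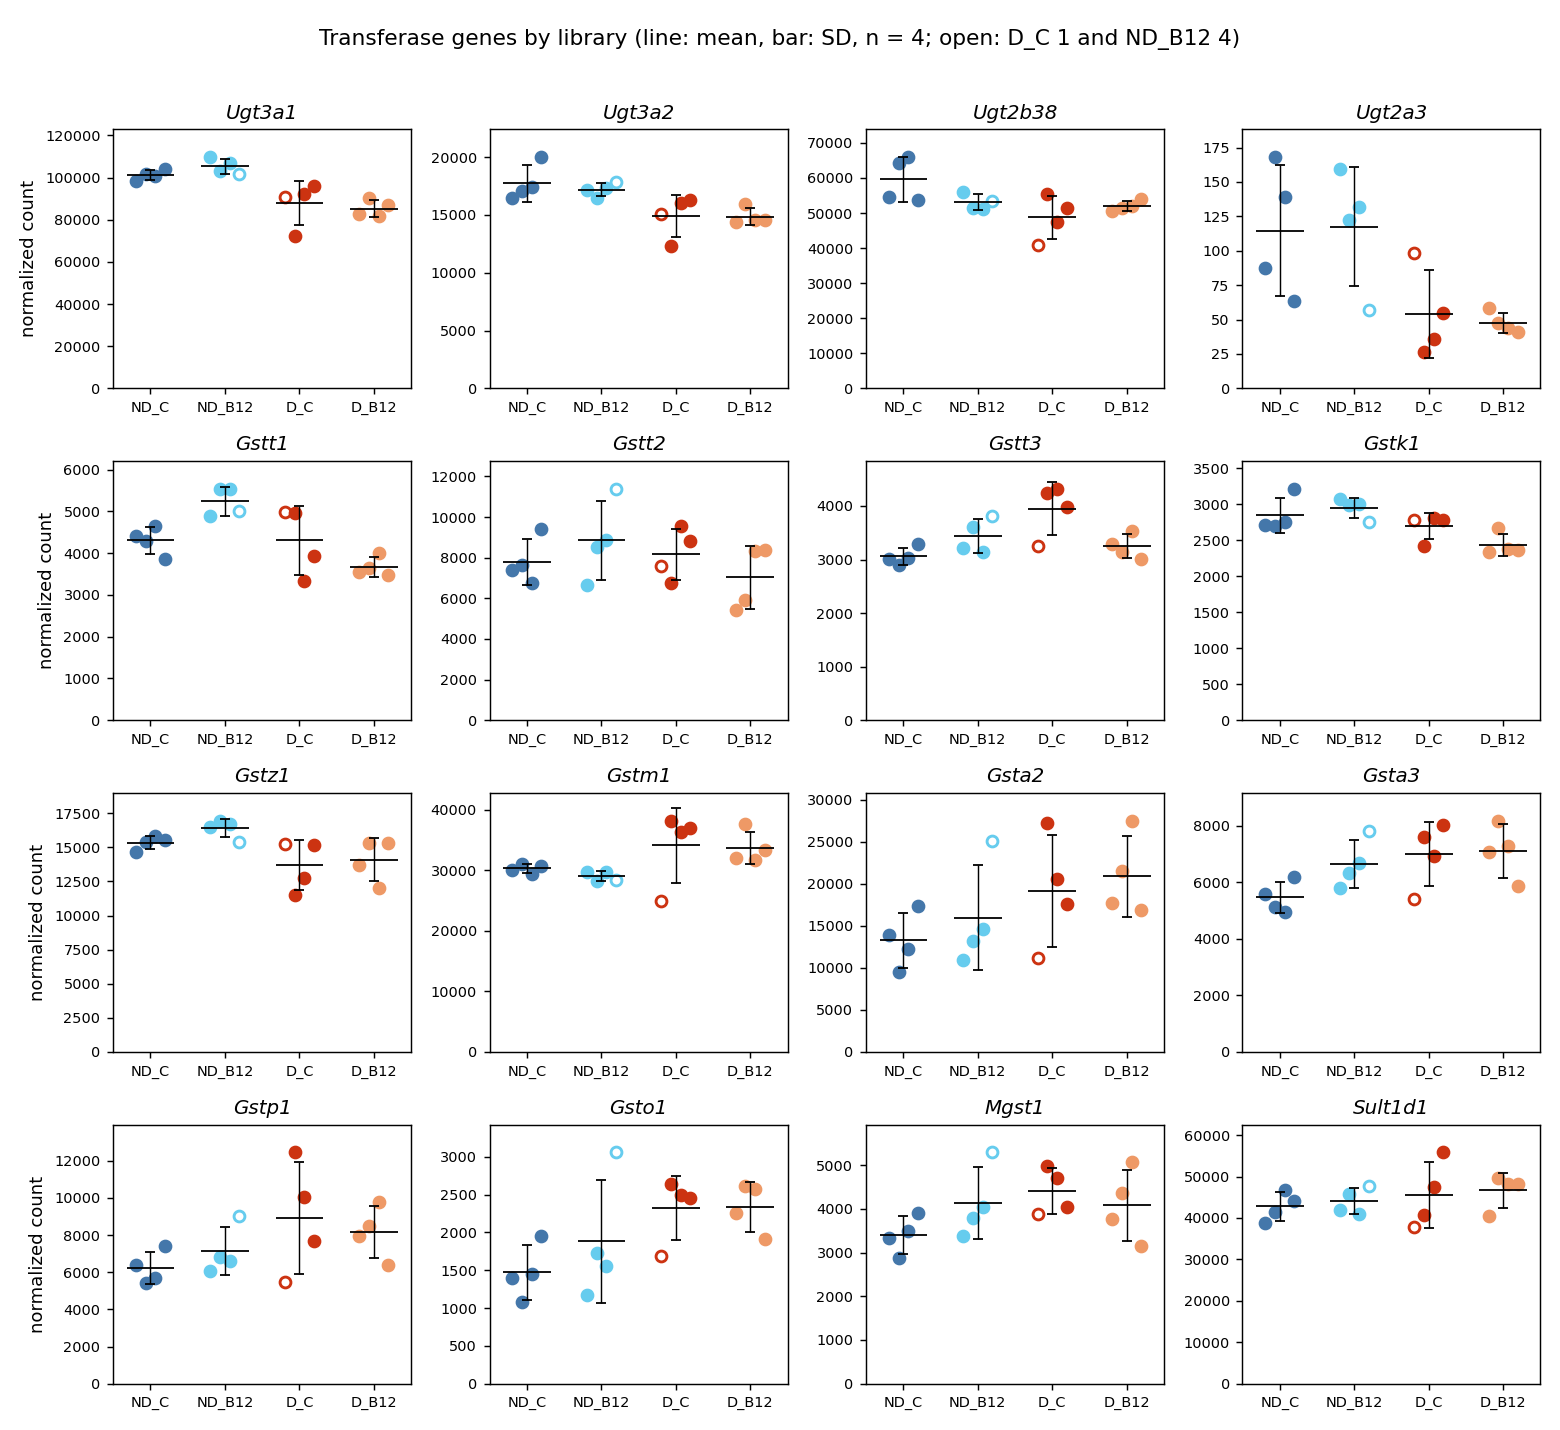
Normalized count of 16 members in each of the 16 libraries, by labelled group, with a line for the mean and a bar for the SD (n = 4), and open circles for D_C 1 and ND_B12 4. Ugt3a1 and Ugt3a2 separate the diabetic from the non-diabetic libraries without overlap, and in Gstm1, Gsta2, Gstp1 and Gsto1 the open circle of D_C lies below the other D_C points.

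The 3 theta-class genes, which lie side by side on chromosome 10 and act on small halogenated compounds and epoxides, gave 1 call each in different arms for Gstt1 and Gstt3 and none for Gstt2. Their interaction values had the same sign, and no test compared the genes with each other. Gstt1 (chr10:75618994-75634445) had normalized counts of 4419, 4300, 4644 and 3861 for ND_C, 4876, 5536, 5529 and 5008 for ND_B12, 4993, 4971, 3320 and 3919 for D_C and then 3553, 3637, 3999 and 3481 for D_B12. In the treated arm all 4 D_B12 libraries were below all 4 ND_B12 libraries, whereas D_C 1 and D_C 2 were above all ND_C libraries and D_C 3 was below them. Gstk1, Gstz1, Ugt3a1 and Ugt3a2 separated in the same way in that arm. The share of all genes that did so is not given here, so the separation is only a description. Gstt1 fell with diabetes in B12-treated kidneys, with a log2 difference of -0.52 (SE 0.11, adjusted p = 0.0418), -30.1%, and the 95% interval in untreated kidneys was -0.24 to 0.23. The treated difference was -0.54 (SE 0.11, adjusted p = 0.0219) without D_C 1 and ND_B12 4. The call was lost with upper-quartile scaling (adjusted p = 0.0737), a minimum of 1 count (adjusted p = 0.0612) and the replicate block (adjusted p = 0.0656). When single libraries were left out the call was lost in 11 of 16 cases (ND_C 1, ND_C 2, ND_C 3, ND_B12 1, ND_B12 2, ND_B12 3, D_C 4, D_B12 1, D_B12 2, D_B12 3, D_B12 4), with adjusted p between 0.0276 and 0.155, and with the label date as a covariate the difference was -0.12 (adjusted p = 0.847).

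Gstt3 (chr10:75609940-75617256) had normalized counts of 3017, 2903, 3033 and 3285 for ND_C, 3221, 3600, 3147 and 3814 for ND_B12, 3247, 4249, 4318 and 3984 for D_C and then 3287, 3141, 3535 and 3018 for D_B12. D_C 2, D_C 3 and D_C 4 were the 3 highest of the 16 libraries, and D_C 1 lay between ND_C 3 and ND_C 4, so the untreated groups overlapped. In untreated kidneys Gstt3 rose with diabetes by 0.37 (SE 0.089, adjusted p = 0.0496) on the log2 scale, 29.1%, and by 0.45 (SE 0.070, adjusted p = 0.00309) without D_C 1 and ND_B12 4. The call was lost with the compared groups alone (adjusted p = 0.0905), a minimum of 1 count (adjusted p = 0.0860) and the replicate block (adjusted p = 0.0601). Leaving out 1 library at a time ended the call in 13 of 16 cases (ND_C 1, ND_C 2, ND_C 3, ND_C 4, ND_B12 2, ND_B12 3, D_C 2, D_C 3, D_C 4, D_B12 1, D_B12 2, D_B12 3, D_B12 4), with adjusted p between 0.00839 and 0.147, and with the label date as a covariate the difference was 0.27 (adjusted p = 0.464). In B12-treated kidneys the value was -0.089 (SE 0.089, adjusted p = 0.658). Gstt3 shares 11.8% of its 50-base words with Gm20441, which overlaps it on the same strand, so part of its counts can belong to either gene.

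Gstt2, the most abundant theta gene, had normalized counts of 7380, 7649, 6744 and 9408 for ND_C, 6641, 8510, 8867 and 11388 for ND_B12, 7583, 6741, 9546 and 8841 for D_C and then 5426, 5934, 8346 and 8402 for D_B12. ND_B12 4 was the highest library and D_B12 1 the lowest, and all 4 groups overlapped. Its averaged difference was -0.13 (SE 0.12, adjusted p = 0.594) with a 95% interval of -0.40 to 0.13, and -0.043 (SE 0.12, adjusted p = 0.880) without D_C 1 and ND_B12 4. The test of whether the effect of diabetes depended on B12 gave -0.46 (SE 0.13, adjusted p = 0.107) for Gstt3 and -0.51 (SE 0.15, adjusted p = 0.125) for Gstt1, so neither passed, and -0.41 (SE 0.24, adjusted p = 0.447) for Gstt2. Over the 44 members 0 passed this interaction test in edgeR, 2 had an unadjusted p below 0.05 (Gstt3 and Gstt1), and DESeq2 called those 2 (4.55%) beside 3.63% of all genes, while in edgeR 0% of all genes passed after adjustment, 16.1% without it and 8.1% were lower without it. The interaction of Gstt3 was -0.49 (SE 0.10, adjusted p = 0.0581) without D_C 1 and ND_B12 4, where 0 members and 0.327% of all genes passed.

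Gstk1 and Gstz1, both from single-member classes, leaned lower. Gstk1 encodes the kappa-class enzyme of mitochondria and peroxisomes and had normalized counts of 2721, 2694, 2757 and 3216 for ND_C, 3080, 2989, 3001 and 2756 for ND_B12, 2786, 2429, 2815 and 2782 for D_C and then 2344, 2667, 2376 and 2370 for D_B12. The 4 D_B12 libraries and D_C 2 were the lowest of the 16, and D_B12 did not overlap ND_C or ND_B12, a description without the share of all genes beside it. Averaged over treatments it differed by -0.18 (SE 0.050, edgeR adjusted p = 0.0648), short of the threshold, and -0.20 (SE 0.054, adjusted p = 0.0308) without the 2 libraries. Gstz1, which encodes maleylacetoacetate isomerase of tyrosine breakdown, had normalized counts of 14637, 15418, 15809 and 15566 for ND_C, 16516, 16959, 16700 and 15426 for ND_B12, 15241, 11540, 12771 and 15189 for D_C and then 13697, 15321, 12012 and 15327 for D_B12. D_C 2, D_B12 3 and D_C 3 were the lowest, and the D_C and D_B12 ranges overlapped ND_C. Its averaged difference was -0.19 (SE 0.063, adjusted p = 0.0995) and -0.24 (SE 0.064, adjusted p = 0.0330) without D_C 1 and ND_B12 4. Gstz1 shares 15.5% of its 50-base words with Tmed8, which overlaps it on the opposite strand.

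The mu class, a cluster on chromosome 3 that detoxifies epoxides and lipid aldehydes, was led by Gstm1 (chr3:107919380-107925380), with normalized counts of 30140, 31048, 29439 and 30815 for ND_C, 29737, 28274, 29729 and 28481 for ND_B12, 24970, 38227, 36426 and 37054 for D_C and then 32137, 37654, 31707 and 33360 for D_B12. D_C 1 was the lowest of all libraries, and the other 7 diabetic libraries were above every non-diabetic one. Over both treatments it differed by 0.19 (SE 0.072, edgeR adjusted p = 0.153) with all libraries and 0.25 (SE 0.041, adjusted p = 0.00228) without D_C 1 and ND_B12 4. Gstm3 differed by 0.21 (SE 0.094, adjusted p = 0.228) and 0.29 (SE 0.067, adjusted p = 0.0159) in the same fits. Gstm4, Gstm5, Gstm6 and Gstm7 had averaged log2 differences between -0.041 and 0.060, and none of them passed in either fit. Gstm2 had normalized counts of 2284, 1807, 2008 and 2342 for ND_C, 2137, 2635, 1792 and 1865 for ND_B12, 2898, 2914, 1742 and 2773 for D_C and then 2445, 1816, 1656 and 1697 for D_B12. D_C 3 stood well below the other D_C libraries, and the averaged difference was 0.070 (SE 0.12, adjusted p = 0.803), and 0.013 (SE 0.13, adjusted p = 0.967) without D_C 1 and ND_B12 4.

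In the alpha class, which reduces lipid hydroperoxides and conjugates 4-hydroxynonenal, higher values in diabetic kidneys came with a wide spread between libraries. Gsta2, the most abundant, had normalized counts of 13953, 9479, 12270 and 17379 for ND_C, 10935, 13245, 14649 and 25131 for ND_B12, 11201, 27186, 20527 and 17571 for D_C and then 17707, 21474, 27517 and 16905 for D_B12. D_B12 3, D_C 2 and ND_B12 4 were the 3 highest, and D_C 1 was within the ND_C range. The averaged difference was 0.45 (SE 0.20, edgeR adjusted p = 0.216) and 0.70 (SE 0.15, adjusted p = 0.00976) without D_C 1 and ND_B12 4. Its near copies Gsta1, Gsta13 and Gsta5 differed by 0.52 (SE 0.21, adjusted p = 0.181), 0.48 (SE 0.21, adjusted p = 0.219) and 0.52 (SE 0.22, adjusted p = 0.208) with all libraries. Without the 2 libraries they differed by 0.77 (SE 0.16, adjusted p = 0.0102), 0.73 (SE 0.17, adjusted p = 0.0155) and 0.81 (SE 0.17, adjusted p = 0.0101). Since reads can be split among these 4 genes, the sum over the 6 alpha genes is the safer measure, and it was 24271 ± 5002 (SD, n = 4) for ND_C, 29321 ± 9507 for ND_B12, 34168 ± 10135 for D_C and then 36348 ± 7374 for D_B12.

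Gsta3, on chromosome 1 and apart from that cluster, had normalized counts of 5602, 5141, 4941 and 6177 for ND_C, 5794, 6346, 6683 and 7805 for ND_B12, 5418, 7613, 6942 and 8027 for D_C and then 7072, 8182, 7293 and 5869 for D_B12. D_B12 2 and D_C 4 were the highest, and D_C 1 lay inside the ND_C range. The averaged difference was 0.22 (SE 0.089, adjusted p = 0.179) and 0.32 (SE 0.074, adjusted p = 0.0147) without D_C 1 and ND_B12 4. Gsta4, the member with the highest known activity towards 4-hydroxynonenal, differed by -0.034 (SE 0.13, adjusted p = 0.922), with a 95% interval of -0.31 to 0.24, and by -0.030 (SE 0.14, adjusted p = 0.929) without the 2 libraries.

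The pi class was also spread widely between libraries. Gstp1 (chr19:4085405-4088068), a cytosolic enzyme that also binds stress kinases, had normalized counts of 6377, 5438, 5711 and 7391 for ND_C, 6051, 6819, 6616 and 9007 for ND_B12, 5483, 12451, 10027 and 7700 for D_C and then 7952, 8465, 9808 and 6399 for D_B12. D_C 2, D_C 3 and D_B12 3 were the highest of the 16, and D_C 1 was among the lowest. On average it differed by 0.35 (SE 0.14, adjusted p = 0.186) and 0.51 (SE 0.11, adjusted p = 0.0124) without D_C 1 and ND_B12 4, and Gstp2 gave 0.33 (SE 0.13, adjusted p = 0.177) and 0.48 (SE 0.10, adjusted p = 0.0105). The rare Gstp3 gave 0.50 (SE 0.53, adjusted p = 0.657) and 0.85 (SE 0.39, adjusted p = 0.206).

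Gsto1, an omega-class enzyme with dehydroascorbate and glutaredoxin-like activity, had normalized counts of 1392, 1083, 1454 and 1957 for ND_C, 1173, 1729, 1562 and 3059 for ND_B12, 1695, 2638, 2493 and 2460 for D_C and then 2251, 2616, 2574 and 1912 for D_B12. ND_B12 4 was the highest of the 16 libraries, and the other 3 D_C libraries were above D_C 1. The averaged difference was 0.48 (SE 0.17, adjusted p = 0.131) and 0.72 (SE 0.12, adjusted p = 0.00283) without D_C 1 and ND_B12 4. Gsto1 overlaps Cfap43, Gm30021 and Gm59209 on the opposite strand. Gsto2 differed by 0.17 (SE 0.22, adjusted p = 0.718). Mgst1, the membrane-bound transferase and peroxidase of the endoplasmic reticulum and mitochondria, had normalized counts of 3344, 2874, 3489 and 3911 for ND_C, 3382, 3800, 4035 and 5291 for ND_B12, 3887, 4978, 4703 and 4051 for D_C and then 3758, 4360, 5061 and 3162 for D_B12. ND_B12 4 and D_B12 3 were the highest, and the groups overlapped. Its averaged difference was 0.18 (SE 0.11, adjusted p = 0.392) and 0.28 (SE 0.10, adjusted p = 0.0997), and Mgst3 gave 0.10 (SE 0.13, adjusted p = 0.729) and 0.24 (SE 0.11, adjusted p = 0.186), without a call in either fit.

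Among the sulfotransferases the most abundant gene did not pass in any comparison. Sult1d1 had normalized counts of 38882, 41317, 46801 and 44170 for ND_C, 42025, 45749, 41072 and 47738 for ND_B12, 37812, 40811, 47542 and 55813 for D_C and then 40447, 49636, 48288 and 48130 for D_B12. D_C 4 was the highest and D_C 1 the lowest, so the D_C values spanned the range of all groups. Its averaged difference was 0.082 (SE 0.076, adjusted p = 0.605), with a 95% interval of -0.084 to 0.25, and 0.14 (SE 0.072, adjusted p = 0.246) without D_C 1 and ND_B12 4. Sult1a1, a phenol sulfotransferase, differed by 0.45 (SE 0.15, adjusted p = 0.116) in untreated kidneys and by 0.24 (SE 0.10, adjusted p = 0.215) on average, and by 0.36 (SE 0.089, adjusted p = 0.0228) without D_C 1 and ND_B12 4, with 21.6% of its 50-base words in common with Sgf29 on the opposite strand. Sult1c2 and Sult1b1 gave -0.012 (SE 0.087, adjusted p = 0.959) and -0.012 (SE 0.15, adjusted p = 0.977).

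The remaining sulfotransferases were rare. Sult2b1, which sulfates cholesterol and pregnenolone, had normalized counts of 69.4, 60.6, 55.5 and 35.5 for ND_C, 68.8, 57.6, 60.9 and 47.4 for ND_B12, 66.9, 115, 45.3 and 108 for D_C and then 55.2, 34.5, 41.4 and 71.7 for D_B12. D_C 2 and D_C 4 exceeded all other libraries, while D_C 3 was among the lower ones. Its difference in untreated kidneys was 0.60 (SE 0.30, adjusted p = 0.294), and 0.69 (SE 0.32, adjusted p = 0.204) without D_C 1 and ND_B12 4. Sult5a1 had normalized counts of 62.9, 37.8, 78.2 and 72.9 for ND_C, 57.9, 89.3, 95.8 and 51.2 for ND_B12, 77.9, 87.4, 47.1 and 44.7 for D_C and then 44.1, 45.3, 64.4 and 47.4 for D_B12, with overlap among all groups and an averaged difference of -0.26 (SE 0.20, adjusted p = 0.525), and -0.38 (SE 0.21, adjusted p = 0.300) without the 2 libraries. Sult6b1 and Sult2a8 gave 0.090 (SE 0.21, adjusted p = 0.865) and 0.14 (SE 1.00, adjusted p = 0.958).

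**Figure D4:**
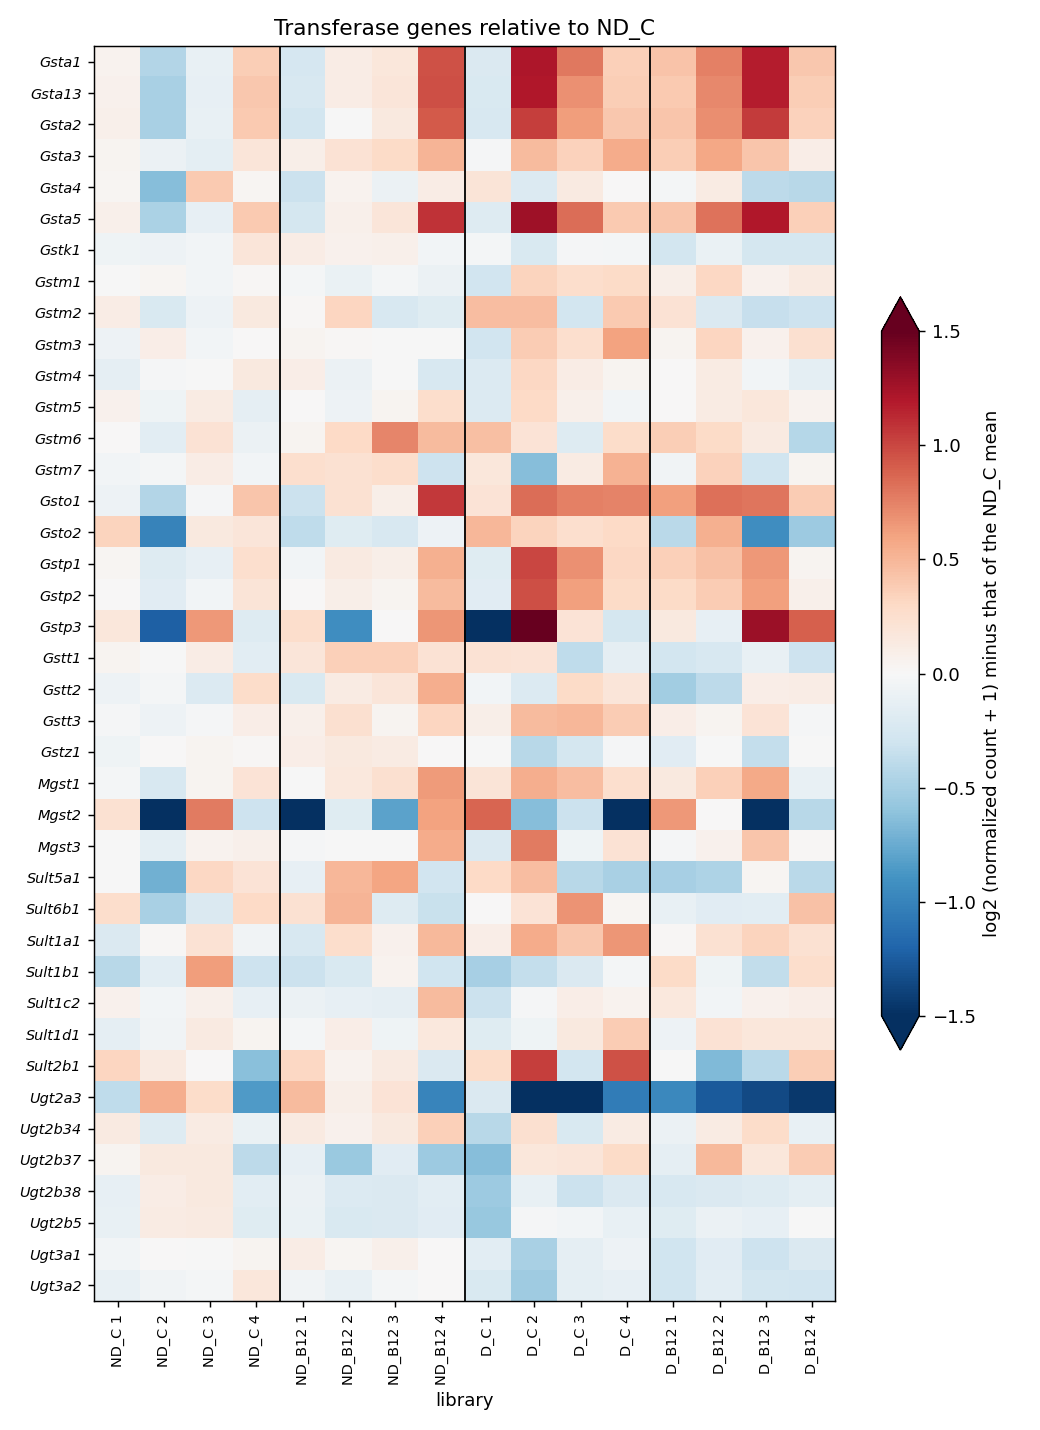
Log2 (normalized count + 1) of 40 members in each library minus that of the ND_C mean, with red for higher and blue for lower and colours capped at 1.5. Columns are the 16 libraries by labelled group. Gsta1, Gsta2, Gsta5, Gsta13 and Gsto1 are red in ND_B12 4, in D_C 2 to D_C 4 and in the D_B12 libraries and closer to white or blue in D_C 1, and Ugt2a3 is blue in ND_C 4, in ND_B12 4 and in the diabetic libraries.

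B12 in diabetic kidneys (D_B12 against D_C as labelled) changed none of the 44 members after adjustment in edgeR, where 0% of all genes passed. At an unadjusted p of 0.05, 3 of 44 (6.82%) passed, all lower in D_B12, against 13.6% of all genes, 7.21% lower. DESeq2 called 0 members and 681 of all genes. The 3 were Gstt3, with -0.28 (SE 0.089, adjusted p = 0.181), Gstm2, with -0.44 (SE 0.17, adjusted p = 0.261), and Sult2b1, with -0.73 (SE 0.30, adjusted p = 0.292). In Gstt3 the D_B12 libraries lay between 3018 and 3535 and the D_C libraries between 3247 and 4318, so the groups overlapped through D_C 1. Gstt3, once D_C 1 and ND_B12 4 were left out, was the 1 member of 44 to pass, at -0.36 (SE 0.070, adjusted p = 0.0362), against 0.842% of all genes. The 95% interval was -0.21 to 0.12 for Ugt3a1, -1.05 to 0.70 for Ugt2a3, -0.24 to 0.20 for Gstm1 and -0.47 to 0.73 for Gsta2, and the median over members was -0.011, beside -0.00044 over all genes, and between -0.12 (without D_C 1) and 0.029 (without D_C 4) with 1 library left out. Diabetes in untreated kidneys and B12 in diabetic kidneys share the D_C libraries.

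B12 in non-diabetic kidneys (ND_B12 against ND_C) also changed 0 of 44 members in edgeR, with 0% of all genes called, 2 members (4.55%) higher at an unadjusted p of 0.05 against 7.62% of all genes, 3.67% higher, and 0 members called by DESeq2. The 2 were Gstt1, with 0.29 (SE 0.11, adjusted p = 0.602), in which the lowest ND_B12 library (4876) was above the highest ND_C library (4644), as for 2.65% of all genes, and Gsta3, with 0.29 (SE 0.13, adjusted p = 0.637). The next smallest p was that of Gstm6, with normalized counts of 69.4, 61.6, 80.4 and 65.3 for ND_C, 71.0, 85.4, 116 and 96.7 for ND_B12, 94.9, 79.9, 60.4 and 84.2 for D_C and then 89.3, 84.3, 76.3 and 51.0 for D_B12. Its ND_B12 3 library was the highest of the 16, and the difference was 0.42 (SE 0.20, adjusted p = 0.672). The median over members was 0.13, beside 0.0019 over all genes, and 34 of 44 were above 0, against 50.4% of all genes. The median was 0.036 without ND_B12 4. Without D_C 1 and ND_B12 4, Gsta3 gave 0.20 (SE 0.10, adjusted p = 0.948) and Gstt1 0.31 (SE 0.11, adjusted p = 0.944).

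Genes that supply the donors or handle the conjugates were taken from lists by function, with averaged diabetes values. Of 12 genes of glutathione synthesis and recycling 1 passed, Cbs, which makes cystathionine from homocysteine, with a log2 difference of -0.50 (SE 0.094, adjusted p = 0.0157), in edgeR. Gclc and Gclm, the subunits of the rate-limiting enzyme, gave 0.10 (SE 0.10, adjusted p = 0.668) and -0.081 (SE 0.055, adjusted p = 0.451). Of 12 genes of glutathione and conjugate breakdown 4 were lower and 0 higher. They were Ggt1, the brush-border enzyme that cleaves glutathione and its conjugates (-0.34, SE 0.071, adjusted p = 0.0215), Nat8, which acetylates the resulting cysteine conjugates to mercapturic acids (-0.32, SE 0.078, adjusted p = 0.0371), and the aminoacylases Acy1 (-0.40, SE 0.10, adjusted p = 0.0375) and Acy3 (-0.47, SE 0.089, adjusted p = 0.0161). The median over the 12 was -0.15. These counts read against 3.02% of all genes.

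Of 15 genes of UDP-glucuronic acid supply and use, 2 were lower, Gusb, the lysosomal beta-glucuronidase (-0.55, SE 0.13, adjusted p = 0.0301), and Miox, which opens the inositol ring to glucuronic acid (-0.52, SE 0.091, adjusted p = 0.0121), and all 8 diabetic libraries were below the 8 non-diabetic ones for Miox. Higher were Ugt1a2 (1.93, SE 0.44, adjusted p = 0.0298), Ugt1a5 (1.89, SE 0.39, adjusted p = 0.0202) and Ugt1a10 (2.24, SE 0.54, adjusted p = 0.0359), 3 genes of the Ugt1a locus, which share their last exons. Ugdh, which makes UDP-glucuronic acid, gave 0.17 (SE 0.081, adjusted p = 0.264). Of 13 sulfate genes 1 passed, the sulfatase Arsb (-0.31, SE 0.072, adjusted p = 0.0331), while Papss1 and Papss2, which make PAPS, gave -0.032 (SE 0.075, adjusted p = 0.867) and -0.14 (SE 0.072, adjusted p = 0.307). Of 9 exporters 1 passed, Abcc5 (0.23, SE 0.055, adjusted p = 0.0348), and Abcc2, the apical exporter of glutathione and glucuronide conjugates, gave 0.33 (SE 0.10, adjusted p = 0.0805).

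Of 12 tested genes of the Nrf2 list outside the members, 2 were higher, the quinone reductase Nqo1 (0.43, SE 0.10, adjusted p = 0.0379) and the carbonyl reductase Cbr3 (0.82, SE 0.20, adjusted p = 0.0389), and 2 were lower, Me1 (-0.23, SE 0.051, adjusted p = 0.0266) and Ces1g (-1.37, SE 0.35, adjusted p = 0.0488). Nfe2l2, which encodes Nrf2 itself, gave -0.055 (SE 0.067, adjusted p = 0.706). Of 14 xenobiotic and hepatic nuclear factor genes 1 passed, Ppara, with -0.28 (SE 0.066, adjusted p = 0.0346). Of 14 clock genes 0 passed in edgeR on average over treatments, and 0 did so at an unadjusted p of 0.05, while the median over the 14 was 0.28 in untreated and -0.42 in B12-treated kidneys. At an unadjusted p of 0.05, 5 were higher and 1 lower with diabetes in untreated kidneys, and 2 were higher and 9 lower in B12-treated kidneys, beside 18.6% and 17% of all genes in both directions. For B12 in diabetic kidneys 3 were higher and 9 lower, and in the interaction 3 and 10, beside 13.6% and 16.1% of all genes. After adjustment 1 passed in any of these comparisons, Cry2, a repressor of the clock, higher in untreated diabetic kidneys (0.89, SE 0.22, adjusted p = 0.04996). For B12 in diabetic kidneys the paper reports the opposite direction, with Bmal1 and Clock lower and the Cry and Per genes and Dbp higher. As labelled, Bmal1 was at 230 to 324 normalized counts in D_C and 567 to 1017 in D_B12. Dbp was at 4684 to 7567 in D_C and 1789 to 3159 in D_B12. All clock directions given here rest on the labels cautioned against above.

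The same lists were also counted without D_C 1 and ND_B12 4, a step chosen after seeing the data, in a fit that called 9.82% of all genes. Synthesis then had 2 higher and 1 lower, and breakdown 2 higher, the 5-oxoprolinase Oplah (0.39, adjusted p = 0.00399) and the aminopeptidase Anpep (0.35, adjusted p = 0.00389), and 5 lower. UDP-glucuronic acid genes had 8 higher and 2 lower, sulfate genes 1 and 1, and the Nrf2 list 4 and 2. Exporters had 4 higher, Abcc1, Abcc2, Abcc4 and Abcc5, and 0 lower, nuclear factors 0 and 1, and clock genes 0 and 0. Ggt1 (-0.39, adjusted p = 0.00234), Miox (-0.62, adjusted p = 0.000229), Cbs (-0.59, adjusted p = 0.000843), Nqo1 (0.55, adjusted p = 0.000431) and Ugt1a2 (2.68, adjusted p = 3.68e-05) passed in both fits.

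**Figure D5:**
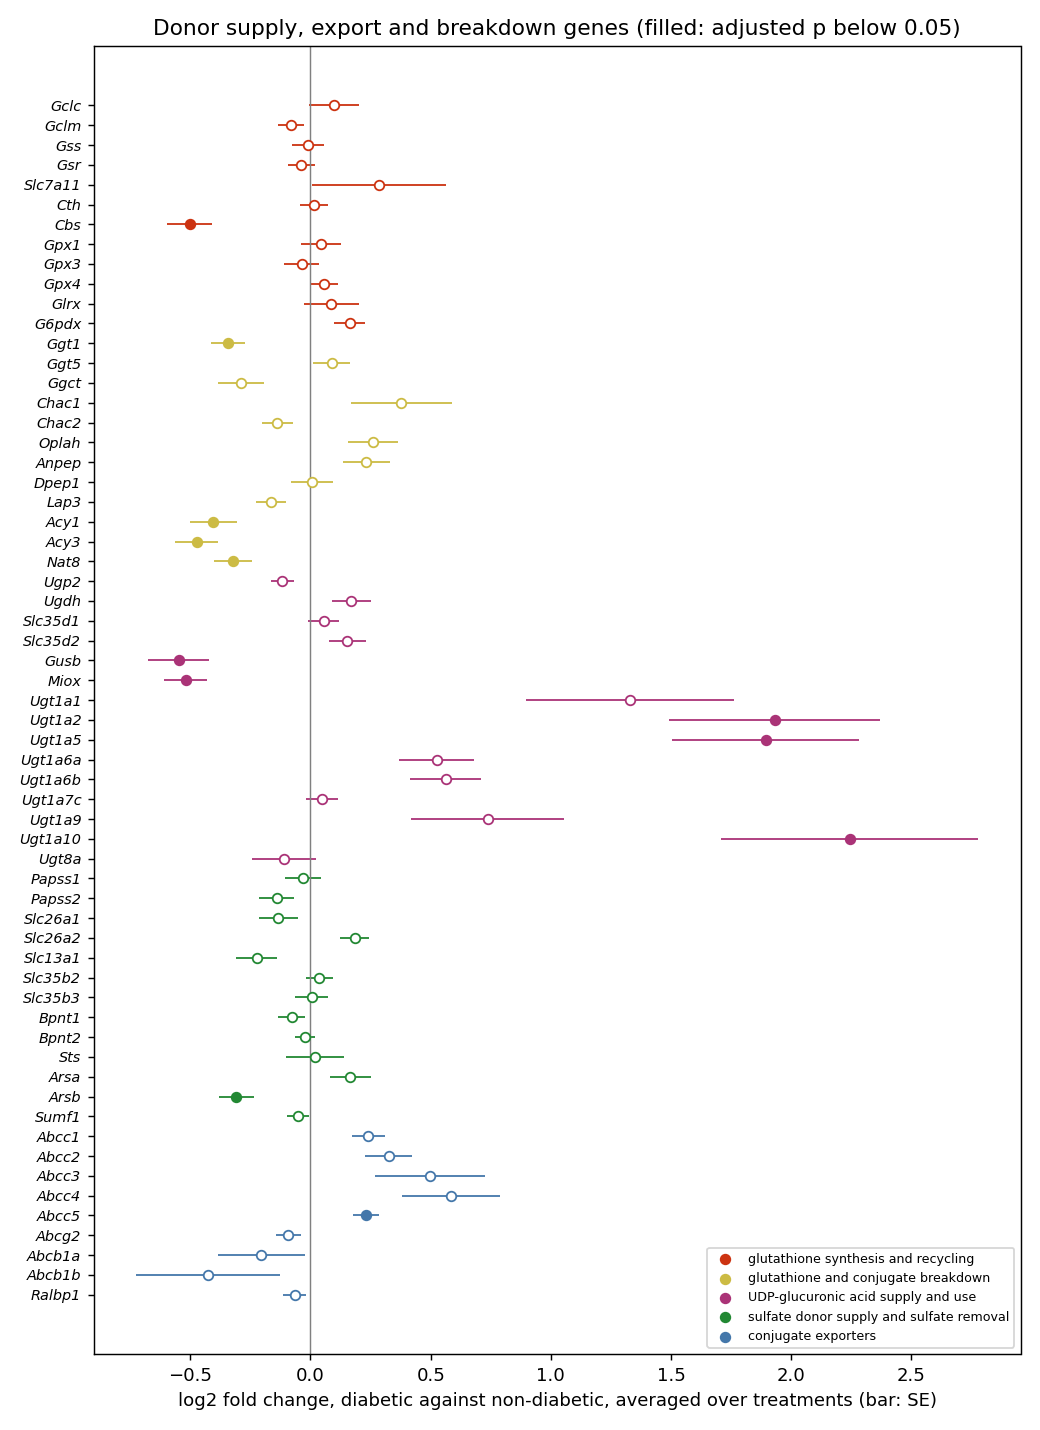
Log2 fold change of diabetic against non-diabetic kidneys, averaged over treatments, with SE bars, for genes of 5 lists coloured by list, filled where the adjusted p was below 0.05. The filled points of the breakdown list all lie to the left of 0, between -0.32 and -0.47, and those of the Ugt1a locus lie farthest to the right.

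The 250 bases before the annotated start of each member were searched on both strands for the core of the antioxidant response element bound by Nrf2, TGACNNNGC, and for the D-box TTATGTAA bound by Dbp, Tef and Hlf. The first was in 2 of 44 members (4.55%), beside 9.69% of 21770 promoters of the same length, and the second in 1 of 44 (Ugt2b1, 2.27%), beside 0.836%. The 2 matches to the first are shown with the match in capitals, on GRCm39, to show where in the promoter they lie.
Gsta3, chr1:21310668-21310716, plus strand: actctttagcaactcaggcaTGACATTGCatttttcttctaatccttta
Gstm5, chr3:107803108-107803136, plus strand: tgcgcctgcgcaccgcccacTGACCACGC
The Gsta3 match begins 118 bases and the Gstm5 match 9 bases before the start. A match is a run of letters and not a measured site, and its absence from this window says nothing of elements farther away.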

How the data were processed

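Kidney RNA from 16 mice was sequenced as paired-end reads of 50 bp, with 4 biological replicates, numbered in the labels, in each of 4 groups. The authors aligned reads with STAR to GRCm39 and the GENCODE vM35 annotation and made estimated counts per gene with StringTie and its prepDE script, and the deposited estimated counts were whole numbers, so rounding changed nothing. The submitters' processing notes also name bcl2fastq 2.20.0, DESeq2 and limma; versions of STAR and StringTie and the strand setting are not given in the sources used here. The deposited transcript counts were not used. The labels give a treatment of 16 weeks, which is longer than the time from the start at 8 weeks of age to the age at collection in the methods. All 16 columns were matched to a sample, and 0 were without one.

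Genes with at least 100 counts in all were tested in edgeR 4.0.16 (limma 3.58.1, R 4.3.3) by the quasi-likelihood test with TMM scaling, 1 coefficient per group, all 16 libraries and 12 residual degrees of freedom. Tests were two-sided, with Benjamini-Hochberg adjustment over 25408 genes, and intervals are at 95%. The intervals use the t distribution with the 12 residual degrees of freedom, whereas the test also borrows information on the spread from other genes. An interval can therefore include 0 where the unadjusted p is below 0.05. The log2 differences are fitted values, and normalized counts were scaled by the median-of-ratios size factor of each library. The common biological coefficient of variation was 0.201, and p-values measure the spread between these mice. Levels per kilobase used the union of exons, and positions, lengths and sequences came from GENCODE vM39 on the same build, read with Python 3.11.15, pandas 2.3.3, numpy 2.4.6 and Biopython 1.88, with figures from matplotlib 3.10.9. Shared words are runs of 50 bases found in the exons of another gene.

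Values in every library are given for members with an adjusted p below 0.05 in any comparison, for the 3 members with the smallest p where fewer than 3 passed, and for the member highest per kilobase in each class. The members and the gene lists were chosen with earlier results of these data known. Alternatives were DESeq2 1.42.0, other scalings and count filters, the compared groups alone, the label date, a replicate block, leaving out each library, and leaving out the 2 or 4 libraries whose labels were in doubt. The 4 are D_C 1, ND_B12 4, ND_C 3 and ND_B12 1. On simulated data for diabetes in untreated kidneys, with 25224 genes, edgeR recovered 166 of 200 changed genes (83%) and 4.6% of its calls were false, while for DESeq2 the numbers were 169 (84.5%) and 12%. The changed genes had fitted median log2 differences of -1.03 and 1.03 in edgeR, larger in size than most values given here. All genes had the same spread, rare genes were not changed, and label errors and dates were not simulated. These shares therefore do not hold for smaller differences.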

Additional observations from a re-analysis of the deposited data

Results flagged for a closer look

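In 84 groups of 4 libraries, formed by the members named above and the labelled groups, 11 held a library whose gap to its nearest neighbour exceeded, as a share of the group's range, Dixon's critical value at the 95% level, where chance gives about 1 in 20. Gstk1 gave 3 of them, ND_C 4 at 3216 normalized counts against 2694 to 2757 in the others, D_C 2 at 2429 against 2782 to 2815, and D_B12 2 at 2667 against 2344 to 2376. Gstm1 in D_C 1 was at 24970 normalized counts against 36426 to 38227. Gstm2 in D_C 3 was at 1742 against 2773 to 2914. Sult1d1 in D_B12 1 was at 40447 against 48130 to 49636. Sult5a1 in D_B12 3 was at 64.4 against 44.1 to 47.4, and Ugt3a2 in D_B12 2 at 15928 against 14390 to 14592. Ugt2b35, with few reads, gave ND_C 2 at 2.98 against 0, D_C 1 at 0 against 13.3 to 14.6 and D_B12 3 at 22.1 against 6.35 to 7.29 normalized counts. D_C 1, one of the libraries whose diabetes state was in doubt, accounts for the Gstm1 value and 1 of the Ugt2b35 values.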

How the results depend on the processing

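The number of members called moved with several settings. DESeq2 called 3 members in untreated and 5 in B12-treated kidneys, 5 on average over treatments and 2 in the interaction, and over all genes 1603, 1146, 1832 and 923, with 681 for B12 in diabetic and 6 for B12 in non-diabetic kidneys, where edgeR called 423, 209, 767, 0, 0 and 0. Upper-quartile scaling called 0 members and 18 genes in B12-treated kidneys. With at least 1 count as the minimum the counts were 0 in untreated, 0 in B12-treated and 1 on average, with 63, 35 and 427 of all genes. With the compared groups alone they were 0 in untreated and 2 in B12-treated kidneys, with 182 and 191 of all genes. With the label date they were 0, 0 and 0, with 1 member, Gstt2, for B12 in diabetic kidneys and 1 in the interaction, and the Gstm2 value for B12 in diabetic kidneys turned to 0.013, and of all genes 2 passed in untreated kidneys, 29 in B12-treated kidneys, 0 on average, 204 for B12 in diabetic kidneys and 753 in the interaction. Without D_C 1 and ND_B12 4 they were 12 in untreated, 4 in B12-treated, 20 on average and 1 for B12 in diabetic kidneys, with 2087, 684, 2495 and 214 of all genes. Without 4 libraries in doubt they were 7 in untreated kidneys and 8 on average, with 1323 and 1601 of all genes, 364 in B12-treated kidneys and 119 for B12 in diabetic kidneys. Leaving out 1 library gave 0 to 9 members in untreated kidneys (9, or 20.5%, without D_C 1, beside 6.1% of all genes). In B12-treated kidneys it gave 0 to 3 (3, or 6.82%, without D_C 2, beside 1.72% of all genes). On average it gave 0 to 14 (14, or 31.8%, without D_C 1, beside 6.64% of all genes). In the interaction it gave 0 to 1 (1, or 2.27%, without D_C 1, beside 1.04% of all genes), and for both B12 comparisons 0. The cause of these shifts was not tested. Ugt2b35, whose calls are not read as results, is counted in the 12 and 20 without the 2 libraries and in the 9 without D_C 1. With the longest transcript the share of Ugt2b38 was 15.3%, below the 19.9% of Ugt3a1. Same-numbered libraries did not deviate together (correlations from -0.173 to 0.160, with 5 of 16 libraries closest to their own number), and the replicate block gave 0 members in untreated and 0 in B12-treated kidneys and 2 on average, with 269, 25 and 478 of all genes and 147 in the interaction. Of the values of named members under these settings, 376 kept direction and stayed called or uncalled. A further 69 lost the call, 15 gained it and 1 changed sign. The 376 include values without a call in the main fit. Among the called values, the call was lost in 17 of 26 settings for Gstt3 and 15 of 26 for Gstt1. It was lost in 14 of 25 for Ugt2a3, 5 of 25 for Ugt3a1 and 18 of 25 for Ugt3a2.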
